A study of Mus musculus with 2 samples.

Results

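The urea cycle turns ammonia, which is toxic, into urea for excretion, and the liver is the organ that runs the whole cycle. Ammonia enters in the mitochondria of hepatocytes, where Cps1 makes carbamoyl phosphate and Otc joins it to ornithine, and the cycle goes on in the cytosol with Ass1 and Asl. In the liver lobule, blood flows from the portal side to the central vein. Periportal hepatocytes are known for urea synthesis from ammonia, and a thin pericentral layer is known for catching the remaining ammonia as glutamine. The genes described are the 7 rows of the count tables, of 32285 gene identifiers in all, whose symbol is Nags, Cps1, Otc, Slc25a15, Ass1, Asl or Gls2. They were chosen by name, and each symbol stood on 1 row.

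Liver of male C57BL/6J mice was measured with 10x Visium spatial transcriptomics (ST), in which a tissue section lies on a grid of barcoded spots and RNA molecules are told apart by a unique molecular identifier (UMI). A section of 10 µm was taken from 1 NCD mouse, of the control group, and another from 1 HFD mouse, whose high-fat diet is described as 60% fat. The mice were 5 weeks old at purchase, both groups were on their diet for 14 weeks and then received distilled water by mouth for 8 weeks, and livers were collected after hepatic perfusion. A spot can hold several cells. With 1 section per diet there are no replicates. Diet, animal and section cannot be told apart, no test was possible, and the 95% intervals given cover counting error only.

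Depth differed between the sections. The NCD section had 29037988 UMIs in 3692 spots over tissue, with a median of 4187.5 per spot, and the HFD section had 72118803 UMIs in 3594 spots, with a median of 18549. The NCD capture area also stood apart in its spots off tissue, of which 93.9% held at least 1000 UMIs, against 58.0% on the HFD capture area. Of all pairs of a spot over and a spot off tissue, the former was the deeper in 51.6% for NCD and in 99.2% for HFD. In the NCD section 840 spots over tissue held fewer than 1000 UMIs, and in the HFD section 4 did. Whether the NCD spots called over tissue match the tissue was not tested here.

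The labels name liver as the tissue but also give a hematopoietic stem cell line and immune cells. The markers went with liver. The 7 hepatocyte markers summed to 119183 CPM (UMIs of the genes per 1000000 UMIs) in NCD and to 124069 CPM in HFD, with Alb as their most abundant gene. The 6 hematopoietic stem cell markers summed to 40.4 and 69.5 CPM, with Ly6a as the most abundant.

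The first comparison asks how the level of the pathway differed between the diets. All 7 members together had 5906 CPM (5878 to 5934) in the NCD section and 3440.0 CPM (3426 to 3454) in the HFD section, which is 58.3% of the NCD level and a log2 ratio of -0.78 (-0.79 to -0.77). Each of the 7 was lower in the HFD section, and 3 of them, Cps1, Ass1 and Asl, were lower by at least 1.5-fold. Median-ratio scaling lowers all genes alike by 0.19, so it could not turn any of these higher. Counts under it, given below for the lists, have no share of all genes beside them. But 3 of the 7 turned higher when the profile of spots off tissue was subtracted. Of the 11913 genes that had 100 UMIs or more in total, 29.2% were lower in the HFD section at any size. By at least 1.5-fold, 5.01% were lower and 25.5% were higher, and no member was higher. The median log2 ratio of the members was -0.55, and that of all these genes was 0.24.

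Cps1, the mitochondrial enzyme that takes up free ammonia in the committed step of the cycle, had 1841 CPM (1826 to 1857) in the NCD section and 974 CPM (967 to 981) in the HFD section. Its log2 ratio was -0.92 (-0.93 to -0.90). Ass1, which joins citrulline to aspartate and so brings in the other nitrogen atom of urea, had 2240 CPM (2223 to 2257) and 1256 CPM (1248 to 1264). Its log2 ratio was -0.83 (-0.85 to -0.82). Asl, which splits argininosuccinate into arginine and fumarate, had 820 CPM (810.1 to 831) and 366 CPM (361 to 370.3). At -1.17 (-1.19 to -1.14) it had the lowest of the 7 reported log2 ratios. With CPM averaged over spots Gls2 was lower, at -1.82, and with the profile of spots off tissue subtracted Asl came to -0.044.

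The other 4 members differed by less than 1.5-fold. Gls2, the liver glutaminase that releases ammonia from glutamine beside the cycle, had 319.7 CPM in NCD and 218 CPM in HFD, giving a log2 ratio of -0.55 (-0.59 to -0.51), which was past 1.5-fold in 4 of 9 alternatives and came to -1.82 with CPM averaged over spots. The remaining 3 lay between -0.16 and -0.12. These are Slc25a15, the carrier that exchanges ornithine and citrulline across the inner mitochondrial membrane, Otc, and Nags, which makes the activator that Cps1 needs. Their levels were 194 and 174 CPM for Slc25a15, 439 and 405 CPM for Otc, and 50.9 and 46.3 CPM for Nags, in the NCD and the HFD section.

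These ratios depended on how RNA off tissue was treated. When the mean profile of the spots off tissue was subtracted, which took away 67.2% of the UMIs over tissue in the NCD section and 7.76% in HFD, the ratio of Asl came to -0.044 and that of the sum to -0.50, and Nags, Otc and Slc25a15 turned to above 0. Cps1 and Ass1 stayed lower, at -0.75 and -0.72, and Gls2 came to -0.069.

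**Figure D1:**
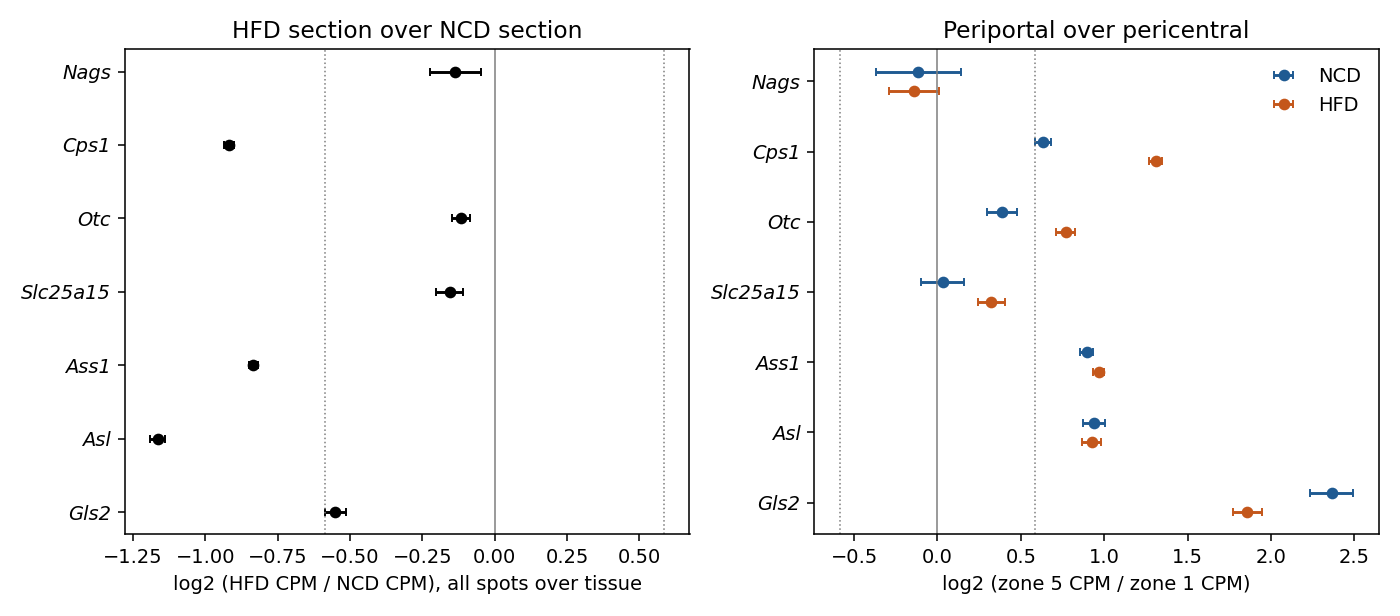
Left, log2 ratio of CPM in HFD to CPM in NCD for each member, over all spots over tissue. Right, log2 ratio of CPM in zone 5 (periportal) to zone 1 (pericentral) in each section. Points are pooled values of 1 section per diet, bars are exact 95% intervals of counting error, solid lines mark 0 and dotted lines a 1.5-fold difference. Asl, Cps1 and Ass1 lie left of the dotted line on the left, and Gls2 has the highest ratio in both sections on the right.

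The second comparison asks how the members are laid out along the lobule. Spots with at least 1000 UMIs were ranked in each section by the share of pericentral genes among the UMIs of 16 pericentral and 10 periportal genes, none of them a member, and cut into 5 zones of equal size, from zone 1 at the pericentral end to zone 5 at the periportal end. This used 2852 NCD spots and 3590 HFD spots. The ranking genes differed between the sections too. Of the 16, 7 were lower and 1 was higher in HFD by at least 1.5-fold. Of the 10, 5 were higher and none lower, where 5.01% of all genes were lower and 25.5% higher. Genes of known position that the ranking did not use lay where they are known to, as far as they had enough UMIs to be counted. Of 5 pericentral ones, 3 were counted in each section, and of 3 periportal ones, 2 in NCD and 3 in HFD. Cyp7a1, the rate-limiting enzyme of bile acid synthesis, had a log2 ratio of zone 5 to zone 1 of -2.44 in NCD and -1.72 in HFD, and Sds, a periportal serine dehydratase, had 2.69 and 2.53. Depth differed between zones too: median UMIs per spot ran from 6610 in zone 1 to 5187.5 in zone 5 of the NCD section, and from 17648.5 to 27342.5 in HFD.

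In the NCD section the 7 members together went from 3954 CPM in zone 1 to 6974 CPM in zone 5, with 5449, 6415 and 6728 CPM in the zones between. This log2 ratio of zone 5 to zone 1, called the gradient, was 0.82 (0.79 to 0.84). Of the 7, 4 were at least 1.5-fold higher in zone 5, where 3.03% of the 5949 genes with at least 100 UMIs in zones 1 and 5 together were. The 4 are Gls2, Asl, Ass1 and Cps1. Cps1 fell below 1.5-fold in 7 of 13 alternatives, Ass1 in 1 of 13 and Asl in 1 of 12. With zones from Cyp2e1 and Cyp2f2 alone the count was 1.

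In the HFD section the sum went from 2114 CPM in zone 1 to 4310.4 CPM in zone 5, through 2919, 3417 and 3937 CPM, giving a log2 ratio of 1.03 (1.01 to 1.05). Here 5 of the 7 were at least 1.5-fold higher in zone 5, against 4.29% of 9848 genes, and Otc was the one added, though with the off-tissue profile subtracted within zones it was past 1.5-fold in both sections. In HFD it fell below 1.5-fold in 2 of 13 alternatives, to 0.47 at the lowest. The median gradient of the members was 0.63 in NCD and 0.92 in HFD, and that of all genes counted was -0.16 and -0.11.

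Gls2 had the steepest gradient of the 7 in both sections. In NCD it went from 112 CPM in zone 1 to 575 CPM in zone 5, with a gradient of 2.36 (2.24 to 2.49). In HFD it went from 93.2 to 338 CPM, with a gradient of 1.86 (1.77 to 1.95). Over the alternatives that gave a gradient, that of Gls2 fell as low as 1.49 in NCD and 0.99 in HFD. Each step from one zone to the next was beyond counting error in both sections. The difference between its gradients, HFD minus NCD, was -0.51 (-0.66 to -0.35). With the off-tissue profile subtracted within zones, a choice made after seeing the data, Gls2 and Asl were at 0 in zone 1 of the NCD section, so that no gradient could be given.

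Cps1 differed in shape between the sections. In the NCD section it peaked in the middle of the lobule, with 1217, 1825, 2133, 2075 and 1885 CPM from zone 1 to zone 5, and both steps down after zone 3 were beyond counting error. In the HFD section each zone was above the one before, with 510, 791, 980, 1159 and 1263 CPM. Its gradient was 0.63 (0.59 to 0.68) in the NCD section and 1.31 (1.27 to 1.35) in the HFD section, a difference of 0.68 (0.62 to 0.74). With the off-tissue profile subtracted within zones the NCD section still peaked in zone 3, at 2323 CPM against 1802 CPM in zone 5, but its gradient of 2.40 was then above the 1.37 of the HFD section.

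Of the other mitochondrial members, Otc had a gradient of 0.39 (0.30 to 0.48) in the NCD section and 0.77 (0.71 to 0.82) in the HFD section. It had 352 CPM in zone 1 and 461 CPM in zone 5 of the NCD section, with its highest level in zone 4, and the steps from zone 3 to 4 and from 4 to 5 were within counting error. In the HFD section it went from 282 to 480 CPM. Subtraction of the off-tissue profile within zones reversed the order of its gradients, to 1.08 in NCD and 0.80 in HFD. Slc25a15 was level over the NCD section, with no step between zones beyond counting error and a gradient of 0.030 (-0.10 to 0.16), and had a gradient of 0.32 (0.24 to 0.40) in the HFD section. For Nags no gradient was detectable at this depth, at -0.11 (-0.37 to 0.14) in the NCD section and -0.14 (-0.29 to 0.0062) in the HFD section.

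The cytosolic enzymes Ass1 and Asl had nearly the same gradients in both sections. Ass1 had 0.89 and 0.97, and Asl had 0.94 and 0.92. The interval of the difference held 0 for Asl (-0.10 to 0.071), and for Ass1 it ran from 0.019 to 0.12. With the off-tissue profile subtracted within zones, Ass1 had 2.91 and 1.02. Summed without subtraction, these 2 differed by 0.049 (0.0043 to 0.093) and Nags, Cps1, Otc and Slc25a15 together by 0.48 (0.43 to 0.53).

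For all 7 the gradient of the HFD section was steeper than that of the NCD section by 0.21 (0.18 to 0.24), and without Cps1 by 0.031, an interval that holds 0. With spots of 5000 to 20000 UMIs in both sections, a choice made after seeing the data that left medians of 9825.5 in NCD and 13302 in HFD, the difference for all 7 came to 0.0015. It was 0.77 when both sections were cut at the same values of the pericentral share. With the off-tissue profile subtracted within zones the order reversed, with gradients of 2.70 in NCD and 1.08 in HFD and a difference of -1.62, so which section had the steeper gradient depended on the treatment of RNA off tissue.

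**Figure D2:**
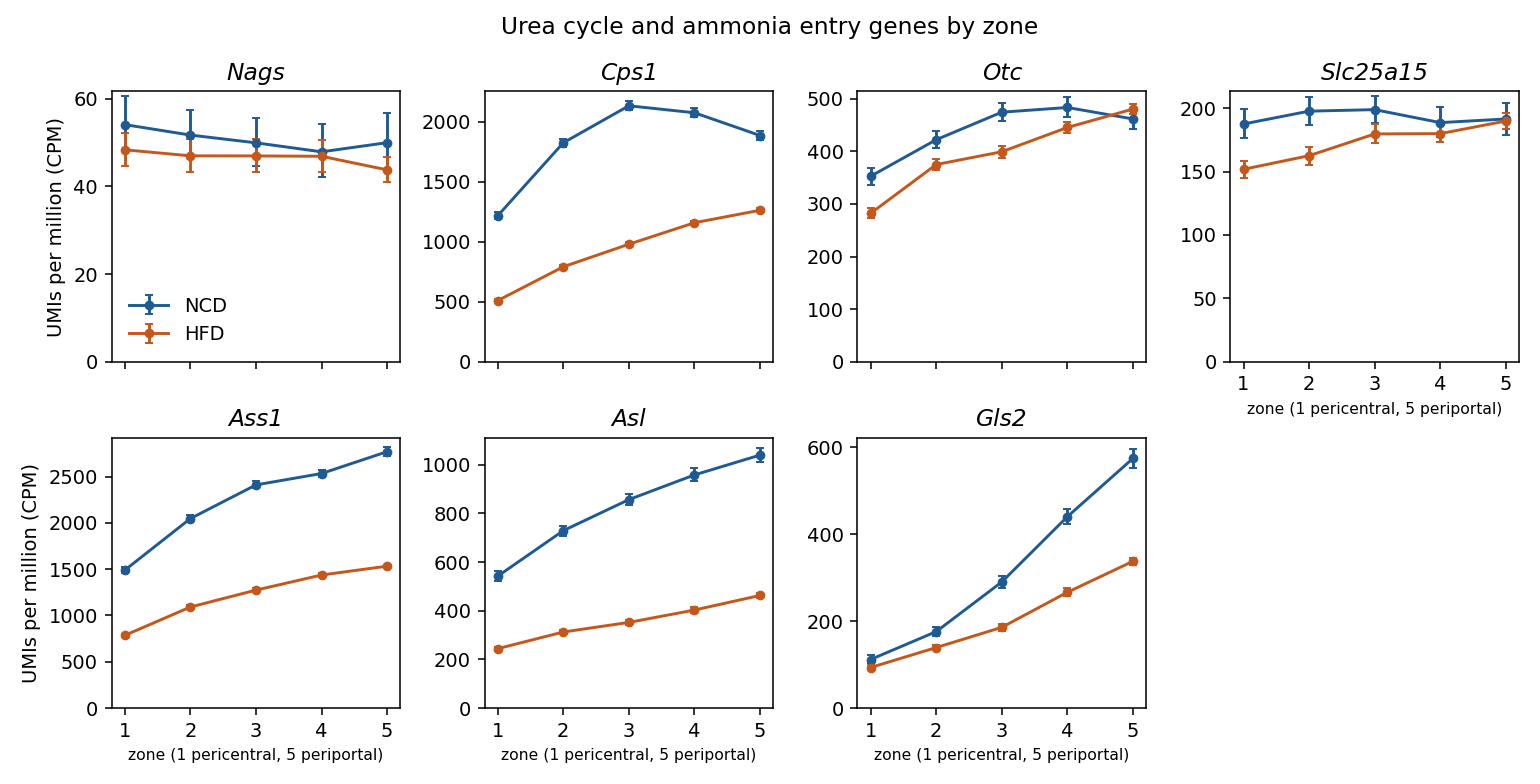
CPM of each member (vertical axis, from 0) in 5 zones from pericentral (1) to periportal (5) in the NCD section (blue) and the HFD section (orange). Points are pooled values of 1 section per diet and bars are exact Poisson 95% intervals. Cps1 peaks in zone 3 of the NCD section and in zone 5 of the HFD section, and for Otc and for Slc25a15 the curves of the sections meet at zone 5.

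Seen within zones, the difference between the sections was larger at the pericentral end for Cps1, Otc and Slc25a15, but not for Nags, which had -0.16 in zone 1 and -0.19 in zone 5. Cps1 had a log2 ratio of HFD to NCD of -1.25 in zone 1, or 41.9% of the NCD level, and -0.58 in zone 5, or 67.0%. Otc had -0.32 in zone 1 and 0.058 (-0.0097 to 0.13) in zone 5, and Slc25a15 had -0.30 and -0.012 (-0.12 to 0.094). Gls2 ran the other way, from -0.26 in zone 1 to -0.77 in zone 5. Asl lay between -1.28 and -1.15 in every zone. At least 1.5-fold lower in zone 1 were 3 of 7 members, Cps1, Ass1 and Asl, where 5.35% of 8380 genes were. In zone 5 they were also 3 of 7, but Ass1, Asl and Gls2, where 4.38% of 9069 genes were. With the off-tissue profile subtracted within zones, the ratio in zone 1 turned to 0.72 for Ass1, to 0.56 for Cps1, to 0.40 for Otc, to 0.17 for Slc25a15 and to 0.78 for the sum, which stayed below 0 in zones 2 to 5. Asl had no NCD level in zone 1 and ran from -0.60 in zone 2 to -1.12 in zone 5, Gls2 ran from 2.65 in zone 2 to -1.42 in zone 5, and in zone 5 Slc25a15 came to 0.64, Otc to 0.13 and Nags to 0.10.

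Within a section the members also varied from spot to spot. After counting error was taken off, the coefficient of variation of Cps1 over spots was 22.8% in NCD and 38.9% in HFD, and within zones it was 14.9% and 25.8%. Gls2 varied most of the 7 in both sections, at 56.1% and 54.0%, and within zones at 33.2% and 30.5%. Both genes varied less within zones than over the whole section.

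Genes of the steps next to the cycle were described from lists of known genes. In the list for glutamine synthesis and ornithine disposal, 5 of 6 genes had at least 100 UMIs. Of the 5, 4 were lower in the HFD section by at least 1.5-fold, as 5.01% of all genes were. Glul, the glutamine synthetase of the pericentral layer, had 661 CPM in NCD and 422 CPM in HFD, giving a log2 ratio of -0.65 (-0.67 to -0.62). Oat, which breaks down ornithine, had 2039 and 868 CPM, giving a log2 ratio of -1.23 (-1.25 to -1.22). The glutamate transporter Slc1a2 had -0.93 and the ammonium transporter Rhbg -0.63. All 4 were steeply pericentral, with Glul at 2077 CPM in zone 1 and 126 CPM in zone 5 of the NCD section and at 1382 and 105.7 CPM in HFD. Aldh18a1 was higher in the HFD section, at 0.517 and 1.54 CPM, and Rhcg was at 0 in both.

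Genes that supply the cycle with substrate were mixed. Of 10 counted, 5 had higher and 5 lower levels in the HFD section, where 70.8% of all genes were higher. Median-ratio scaling, which lowers all genes by 0.19, gave 4 and 6, with Slc25a12 turned below 0. Past 1.5-fold 1 was lower and none was higher, against 5.01% and 25.5% of all genes, and under that scaling Fh1 was lower by that much too. The 1 was Got1, the cytosolic aminotransferase that makes aspartate, with 355 CPM in NCD and 144 CPM in HFD, which is 40.5% of the NCD level. Glud1, which releases ammonia from glutamate, had 530.4 and 715 CPM. Of 6 transporters counted, 2 were higher by at least 1.5-fold, as 25.5% of all genes were, Slc38a2 with a log2 ratio of 0.61 and Slc1a4 with 1.04, and Slc1a4 alone under that scaling. Slc38a3, a glutamine transporter, had 0.52, and the urea channel Aqp9 had -0.0053 (-0.048 to 0.037).

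Genes of the list for ammonia release were of both directions. Not every enzyme on it releases ammonia from amino acids, as it also holds Prodh, Prodh2, Aldh4a1 and Maob. Of 13, 9 had higher levels in the HFD section and 4 lower, where 70.8% of all genes were higher. Median-ratio scaling, which lowers all genes by 0.19, gave 7 and 6, with Sds and Amdhd1 turned below 0. The 2 past 1.5-fold were both lower, as 5.01% of all genes were, and under that scaling Prodh2 was lower by that much too. Cth, which cleaves cystathionine, had 688 and 379 CPM, giving a log2 ratio of -0.86 (-0.89 to -0.84). Hal, the histidine ammonia-lyase, had 219 and 139.6 CPM, giving a log2 ratio of -0.65 (-0.69 to -0.60), which turned to 0.78 when the profile off tissue was subtracted. In the NCD section 6 of the 12 counted were at least 1.5-fold periportal, and in the HFD section 7 of 13, against 3.03% and 4.29% of all genes. At least 1.5-fold pericentral were 2 in NCD, Prodh at -1.33 and Aldh4a1 at -0.64, and 1 in HFD, Prodh at -1.07. Aldh4a1 came to 0.060 when NCD spots were drawn down to 1000 UMIs. Of all genes, 71.5% in NCD and 67.2% in HFD had gradients below 0, and the share past 1.5-fold pericentral is not given here.

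The genes most like each member in pattern were found among 1481 genes, neither members nor index genes, by the root mean square difference in centred log2 CPM over 10 values, 5 zones in each of 2 sections. Cth was nearest to both Cps1, at 0.15, and Ass1, at 0.14, with Serpina1c next for Cps1, at 0.20, and Rdh16f2 next for Ass1, at 0.16. Hal was nearest to Gls2, at 0.17, followed by Sds, at 0.33. Mup3 and Serpina1c were nearest to Asl, both at 0.17. Apcs and Slc7a2 were nearest to Otc, at 0.072 and 0.073, and Rpl13a and Man2a1 to Slc25a15, at 0.048 and 0.054. Nags had too few UMIs for this comparison. The 10 values of a gene share 2 libraries.

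Lipid droplet genes were higher in the HFD section in 7 of 7 cases, each by at least 1.5-fold, as 25.5% of all genes were, and 5 by that much under median-ratio scaling. Plin2, which coats droplets, had 388 CPM in NCD and 697 CPM in HFD, and Cidec, which helps droplets fuse, had 4.10 and 85.0 CPM. Within each zone the spots were split at the median level of these genes. In the HFD section the spots above the median had 3360.4 CPM of the members and those below had 3522 CPM, giving a log2 ratio of -0.068 (-0.079 to -0.056), and the ratio was below 0 in 5 of 5 zones. In the NCD section the values were 5859 and 5897 CPM, giving a log2 ratio of -0.0092 (-0.023 to 0.0046). The hepatocyte markers had a ratio of -0.048 in HFD by the same split, and median UMIs per spot were 19280 above and 18048 below. Their part in the result was not tested.

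Markers of other cells were summed by list, and several differed with diet or zone. The 5 markers of lipid-associated macrophages summed to 69.4 CPM in NCD and 281 CPM in HFD. Of these, Spp1 alone had 43.5 and 187 CPM, so that the values of this list are mostly those of Spp1. The 4 stellate cell markers summed to 45.3 and 133 CPM, led by Col3a1, and the 4 red blood cell genes to 6676 and 1246 CPM, led by Hbb-bs. Macrophage markers, 4 genes led by Clec4f, summed to 75.5 and 99.3 CPM, though Clec4f itself had 54.0 and 49.2 CPM, and 5 endothelial markers, led by Oit3, to 55.3 and 84.3 CPM. The 5 bile duct markers summed to 87.9 and 105 CPM, of which Cldn3 alone had 81.5 and 91.2 CPM, so that their values are mostly those of Cldn3. The 4 smooth muscle markers summed to 25.9 and 68.7 CPM, led by Tagln. Lymphocytes and neutrophils had 8.16 and 5.77 CPM for 3 T cell genes led by Cd3g, 29.7 and 9.33 CPM for 5 B cell genes led by Ighm, and 15.5 and 11.6 CPM for 3 neutrophil genes led by S100a9. Hepatocyte markers went from zone 1 to zone 5, in the NCD section from 104983 to 141076 CPM and in the HFD section from 114782 to 138216 CPM. Their list holds Cyp2e1 and Pck1, which were also used to rank the spots, so this trend is not independent of the zones. Periportal in both sections were the smooth muscle markers, with gradients of 2.87 in NCD and 1.55 in HFD, and those of lipid-associated macrophages, with 2.46 and 1.75. The B cell genes had -3.43 and -0.49, with 101 CPM in zone 1 and 9.35 CPM in zone 5 of the NCD section. The red blood cell genes had a gradient of 0.57 in the NCD section and -1.21 in HFD, and the neutrophil genes had -2.11 and 0.42. In the NCD section the neutrophil genes did not fall steadily. They had 19.3 CPM in zone 1, were highest in zone 4, at 23.4 CPM, and had 4.46 CPM in zone 5, from 21 UMIs. No gradient beyond counting error was found for bile duct markers, at 0.046 (-0.14 to 0.23) in NCD and -0.052 (-0.15 to 0.044) in HFD, or in the NCD section for macrophage, endothelial and T cell markers. Every one of these genes was detected in both sections. Their part in the differences of the members was not tested.

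The members lie on 7 chromosomes. By GENCODE M21 on GRCm38, Cps1 (ENSMUSG00000025991) is at chr1:67123026-67231259, Ass1 (ENSMUSG00000076441) at chr2:31470207-31520672, Asl (ENSMUSG00000025533) at chr5:130011258-130029247 and Slc25a15 (ENSMUSG00000031482) at chr8:22375551-22398597. Gls2 (ENSMUSG00000044005) is at chr10:128194457-128210004. Nags (ENSMUSG00000048217) is at chr11:102145513-102149477 and Otc (ENSMUSG00000031173) at chrX:10252305-10321024. Of the 32158 gene identifiers of the tables that this annotation holds, none other overlapped a member on its strand.

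Promoters were at hand for 4 of the 7, Nags, Otc, Slc25a15 and Ass1, from RefSeq on GRCm38.p6, each 300 bases around a gene start, and not for Cps1, Asl and Gls2. They were searched on both strands for 6 motifs. Of 32851 promoters, 1.79% hold TGACGTCA and 2.08% hold TTGCNNCAA, and 13.6% have TATAAA. The letters CCAAT are in 37.4%. The motif GGGCGG is held by 35.7%, and CAAAGTCCA by 0.475%. GGGCGG was the one found, at 1 place for Ass1, at 2 for Nags, and at 3 and 5 for the 2 starts of Slc25a15, and Otc held none of the 6. Ass1, with a gradient and a lower level in the HFD section, and Nags, with no detectable gradient, are shown with GGGCGG on either strand in capitals. The Ass1 promoter is at chr2:31470020-31470319 on the plus strand with 74.0% G and C, and that of Nags at chr11:102145263-102145562 on the plus strand with 57.7%. A match is a description of these letters and no binding site.
Ass1: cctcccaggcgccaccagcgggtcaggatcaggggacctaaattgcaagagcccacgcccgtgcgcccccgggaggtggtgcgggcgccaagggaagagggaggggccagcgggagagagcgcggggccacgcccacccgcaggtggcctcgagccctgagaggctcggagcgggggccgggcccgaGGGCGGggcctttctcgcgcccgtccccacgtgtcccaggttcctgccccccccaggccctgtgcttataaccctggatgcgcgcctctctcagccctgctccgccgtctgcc
Nags: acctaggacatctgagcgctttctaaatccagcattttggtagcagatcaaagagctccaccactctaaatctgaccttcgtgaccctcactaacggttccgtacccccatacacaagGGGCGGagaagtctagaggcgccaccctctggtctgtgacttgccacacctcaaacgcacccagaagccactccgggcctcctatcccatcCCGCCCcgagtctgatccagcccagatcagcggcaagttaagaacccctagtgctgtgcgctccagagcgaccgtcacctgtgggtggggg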

How the data were processed

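The deposited values are UMI counts without normalization, which the authors obtained with Space Ranger 1.3.1, for the spots over tissue and for all spots of each capture area. The submitters' processing notes give the build mm10. The annotation release is not given in the sources used here. For spots in both tables, the tables differed in 0 UMIs.

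Levels are a gene's UMIs, pooled over spots, per 1000000 UMIs of the same spots (CPM). CPM had exact Poisson intervals, and ratios had exact conditional binomial (Clopper-Pearson) intervals, all at the 95% level. Intervals for differences between gradients used the normal approximation to Poisson error. With 1 section per diet no test was made. The members and lists were chosen with earlier results of these data known. Some genes of the rule and lists are not reported here, and sums and counts leave them out. The genes named were the 7 members, the genes of the lists, and for each member but Nags the 2 genes nearest in pattern, among genes with at least 2000 UMIs in the zones of each section.

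The lists covered glutamine synthesis, substrate supply, transport, ammonia release, modifiers of Cps1, regulators, lipid droplets and cell types. Alternatives changed the spots used, depth, weighting, genes in the total, scaling, off-tissue RNA, zones, index and fold. The range of 5000 to 20000 UMIs, the use of all spots with at least 1000 UMIs and the subtraction of off-tissue RNA within zones were added after seeing the data. Ratios, intervals and zones were tested on simulated data. Calculations used scipy 1.17.1 and numpy 2.4.6 under Python 3.11.15, with pandas 2.3.3 for tables and matplotlib 3.10.9 for plots. Spot positions and images were not used here.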

Additional observations from a re-analysis of the deposited data

Results flagged for a closer look

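Among the members and the genes of the lists, leaving out index genes and cell type markers, 2 had gradients of opposite sign in the 2 sections, each beyond counting error. The difference between the sections was not tested. G0s2, an inhibitor of triglyceride breakdown, had a log2 ratio of zone 5 to zone 1 of 0.55 (0.42 to 0.68) in the NCD section and -1.21 (-1.27 to -1.15) in the HFD section. Prodh2, an enzyme of hydroxyproline breakdown, had -0.28 (-0.42 to -0.14) in the NCD section and 0.15 (0.061 to 0.24) in the HFD section, and the latter came to -0.032 when spots were drawn down to 1000 UMIs. When the off-tissue profile was subtracted within zones, G0s2 had 1.31 and -1.297, and Prodh2 had -1.60 and 0.15.

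The spots off tissue, which enter the report's comparisons only in alternatives, held UMIs of the members on both capture areas. They summed to 6334 CPM (6275 to 6394) on the NCD capture area, where a count of 0 would allow 0.437 CPM, and to 2391 CPM (2326 to 2457) on the HFD capture area, where it would allow 1.38 CPM. On the NCD capture area this was above the level over tissue by a log2 ratio of 0.10 (0.086 to 0.12), and on the HFD capture area it was below, at -0.52 (-0.56 to -0.49). Asl stood furthest above its level over tissue on the NCD capture area, at 0.33 (0.29 to 0.37).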

How the results depend on the processing

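The 7 members were recomputed alone under 9 alternatives for HFD over NCD and 13 for each gradient. Of 243 values, 229 had the sign of the reported one, but some of these signs were fixed beforehand. For HFD over NCD, leaving out the minimum of UMIs per spot repeated the reported calculation, with -0.78 for the sum in both. Median-ratio scaling lowered all 7 by 0.19, and all 7 were already below 0. Signs kept under these settings are counted in the 229 but say nothing about robustness. Median-ratio scaling was not run for gradients, and Asl and Gls2 gave no NCD gradient with the off-tissue profile subtracted. No paired analysis was possible because each diet has 1 section, and leaving out a replicate was not possible either. The cause of each move was not tested.

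The log2 ratio of the sum, HFD over NCD, was -0.77 with spots of at least 3000 UMIs, -0.85 drawn down to 1000 UMIs, -0.99 with CPM averaged over spots, -0.79 without mitochondrial and the 20 most abundant genes, -0.50 with the off-tissue profile subtracted, -0.97 with median-ratio scaling, which moves all genes by 0.19, -0.86 at 5000 to 20000 UMIs and -0.80 with all spots of at least 1000 UMIs. With the off-tissue profile subtracted, Nags came to 0.11, Otc to 0.083, Slc25a15 to 0.50 and Hal to 0.78. Gls2 came to -1.82 with CPM averaged over spots and to -0.069 with the off-tissue profile subtracted. Ppargc1a came to -0.37 with that average. Members different by at least 1.2-fold numbered 4 and by at least 2-fold 1. No share of all genes is given here at those folds.

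The gradient of the sum in the NCD and HFD sections, and their difference, was 0.59, 0.70 and 0.12 drawn down, 0.95, 1.09 and 0.13 without the abundant genes, 1.06, 1.2996 and 0.24 with 10 zones, 0.40, 0.92 and 0.52 with Cyp2e1 and Cyp2f2 alone, 0.60, 1.36 and 0.77 with shared borders, 0.89, 0.90 and 0.0015 at 5000 to 20000 UMIs, 0.71, 1.10 and 0.39 with all spots, and 2.70, 1.08 and -1.62 with the off-tissue profile subtracted within zones, where the ratio of the sum in zone 1, HFD over NCD, came to 0.78. With 3 zones the gradients were 0.60 and 0.81, and with z-scores 0.79 and 0.96, with a difference of 0.17. With CPM averaged over spots the HFD gradient was 0.96 and the difference 0.15. Members at least 1.5-fold periportal in the NCD section numbered 1 with Cyp2e1 and Cyp2f2 alone, and at least 2-fold periportal 1 in the NCD and 2 in the HFD section. No share of all genes is given here under those settings. The NCD gradient of Cps1 was below 1.5-fold drawn down, at 0.33, with CPM averaged, at 0.56, with 3 zones, at 0.43, with Cyp2e1 and Cyp2f2 alone, at 0.14, with z-scores, at 0.58, with shared borders, at 0.32, and with all spots, at 0.52. The HFD gradient of Otc was below 1.5-fold drawn down, at 0.47, and with 3 zones. Drawn down, the NCD gradient of Aldh4a1 came to 0.060.

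Counts limit Nags most, with 1477 UMIs in the NCD section.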

Other observations

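Of 13 regulators known for urea cycle genes, 12 had higher levels in HFD and 1 lower, where 70.8% of all genes were higher. Median-ratio scaling, which lowers all genes by 0.19, gave 6 and 7, and no share of all genes is given here under it. Gcgr, Nr3c1, Cebpa, Nr1h4, Foxo3 and Ppara were near enough to 0 to turn below it by that shift alone. The 4 past 1.5-fold were all higher, as 25.5% of all genes were, and under that scaling Klf15, Cebpb and Foxo1 were past it. Klf15, a regulator of amino acid breakdown, had 86.2 CPM in NCD and 173 CPM in HFD, giving a log2 ratio of 1.00 (0.94 to 1.07). Cebpb had 188 and 354 CPM, giving a log2 ratio of 0.91 (0.87 to 0.95), and Foxo1 had 16.0 and 29.9 CPM, giving a log2 ratio of 0.90 (0.75 to 1.05). Ppargc1a had 0.59 (0.29 to 0.90), from 116 and 433 UMIs, and turned to -0.37 when CPM were averaged over spots. Hnf4a had 0.29, and the glucagon receptor gene Gcgr had 0.17.

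Of the 3 genes for enzymes that modify or degrade Cps1 protein, none was past 1.5-fold. Sirt5, a mitochondrial deacylase, had 10.1 and 15.0 CPM, giving a log2 ratio of 0.58 (0.39 to 0.77), Lonp1 had 0.30 and Sirt3 had -0.30.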
